A study of Mus musculus with 30 samples.

Results

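Newborn neurons of the adult subventricular zone (SVZ), the stem cell niche along the lateral ventricles, carry a set of cytoskeletal, surface and nuclear proteins by which they are usually recognised. The 10 genes described here encode doublecortin (Dcx), the beta-tubulins Tubb3 and Tubb2b, the stathmins Stmn1 and Stmn2, the collapsin response mediator Dpysl3, the surface proteins Cd24a and Ncam1, and the transcription factors Sox11 and Sox4. They were taken by symbol from a fixed list of names, out of 53278 genes counted in the SVZ and 50508 in the striatum. The list was chosen with earlier results of these data known. Counts of the 10 beside the share of all genes are thus a description. All 10 passed the filter on low counts in both tissues, of 16375 and 15419 genes that did. The question was which of these markers differed after ablation of the endogenous neural precursor cells, and which did not in tissue that also holds mature neurons.

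The libraries, 30 in all, were made from tissue dissected out of 15 C57Bl/6 mice, each of which gave SVZ and striatum. The 5 NestinTK+GCV+ mice expressed thymidine kinase under the second-intron enhancer of Nestin and received ganciclovir (GCV), which the kinase turns into a poison of dividing cells. The 3 control groups were 3 NestinTK-GCV+ mice, 3 NestinTK-PBS+ mice and 4 NestinTK+PBS+ mice, where PBS stands for the saline vehicle and NestinTK- for mice without the transgene. Any dividing cell with an active Nestin enhancer can be a target, so the ablated population was not limited to neuroblasts. The study's methods describe adult mice of both sexes but tie no age or sex to a library, and mice are named below by their group and a number within it.

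Neuroblasts migrate from the SVZ in chains towards the olfactory bulb. Dcx binds and stabilises microtubules, Tubb3 and Tubb2b are built into them, and stathmins promote their disassembly. Dpysl3 acts in growth cones, Ncam1 carries polysialic acid in migrating neuroblasts, and Cd24a is a glycoprotein anchored in the membrane of neuroblasts and of ependymal cells. Sox11 and Sox4 are closely related transcription factors of immature neurons, and Dcx and Tubb3 are among the genes they are known to activate. Several of the 10 genes are not limited to newborn cells, since Tubb3, Stmn2 and Ncam1 are also transcribed in mature neurons.

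The SVZ libraries were made with a full-length protocol and held between 8360810 and 21056005 counts. The NestinTK+GCV+ ones were among the shallowest at 8360810 to 9595103 counts. The striatum libraries were made with a protocol that reads the 3' ends of transcripts and held 2626962 to 4693441 counts. The labels call the SVZ samples neural precursor cells, but mature tissue made up much of them: 9 marker genes of medium spiny neurons, the main striatal cell type, summed to 3845 to 12483 CPM (counts scaled to a library total of 1000000), while Nes, the gene of the precursor marker nestin, lay between 0.418 and 15.4 CPM. In the SVZ, 2 libraries stood apart by the glutamate transporters Slc17a7 and Slc17a6, which mark glutamatergic neurons, at 316 CPM in NestinTK+GCV+ mouse 2 and 317 CPM in NestinTK-GCV+ mouse 3, against 0.110 to 41.7 CPM in the others. In the striatum NestinTK-GCV+ mouse 3 at 418 CPM and NestinTK+PBS+ mice 2 and 4 at 214 and 315 CPM stood apart likewise. Ttr, the leading transcript of the choroid plexus, took 4.49% to 9.88% of the counts in SVZ libraries of 3 control mice.

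Reference promoter sequence is shown for Dcx, which passed the nominal thresholds given below in the SVZ, and for Tubb3, which did not. These genes were taken because both are known targets of Sox4 and Sox11. RefSeq windows, from 250 bases before to 50 after the start, were at hand for 4 of the 10 genes (Dcx, Tubb3, Sox11 and Sox4). The stretches printed end where the first annotated exon begins. Capitals mark the letters ACAAAG or ACAATG on either strand, which are forms of the motif that Sox proteins bind and which do not overlap each other here.
Dcx, GRCm38 chrX:143933312-143933469, minus strand: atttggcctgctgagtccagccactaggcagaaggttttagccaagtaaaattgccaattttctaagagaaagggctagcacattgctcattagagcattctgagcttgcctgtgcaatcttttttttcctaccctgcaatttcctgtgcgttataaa
Tubb3, GRCm38 chr8:123411303-123411423, plus strand: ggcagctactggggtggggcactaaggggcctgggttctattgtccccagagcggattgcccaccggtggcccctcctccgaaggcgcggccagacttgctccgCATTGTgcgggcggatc
Of 32851 RefSeq windows of 300 bases, 18.7% held ACAAAG, 12.6% held ACAATG and 28.6% held either. The Tubb3 window held ACAATG at 2 places, 1 of them in the stretch shown, and the stretch shown for Dcx held neither. The second annotated Dcx start had ACAAAG at 1 place within its window, in the transcribed part. The windows of Sox11 and Sox4 held neither. The Dcx stretch was 42.4% G and C with 1 CpG, and the Tubb3 stretch 67.8% with 8 CpG.

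In the SVZ, Dcx, Sox11 and Sox4 were lower in NestinTK+GCV+ mice than in the pooled controls by the nominal thresholds of the study, with an unadjusted p no higher than 0.01 and a change of 2-fold or more. The study used these thresholds with limma, and here they were applied to edgeR's quasi-likelihood test. With limma-voom Dcx did not pass them, as given below. Mean levels were 38.3% of control for Dcx, 44.8% for Sox11 and 29.0% for Sox4. Tubb2b and Cd24a had means of 43.9% and 35.5% of control but did not pass. Stmn1, Dpysl3, Tubb3, Stmn2 and Ncam1 had means between 67.7% and 119% of control and did not pass either. Thus 3 of 10 genes were called lower, against 1.22% of all genes tested, and 5 of 10 were lower at an unadjusted p under 0.05, against 6.09%. Since the 10 were chosen with earlier results of these data known, these counts are a description. None of the 10 had an adjusted p under 0.05 in the quasi-likelihood test of edgeR, adjusted by Benjamini-Hochberg, as against 1 gene in all, or 0.00611%. DESeq2 gave 3 of the 10 an adjusted p under 0.05, against 1.04% of all genes, and limma-voom none, against 0.00611%. At an unadjusted p under 0.05 in either direction DESeq2 had 5 of the 10, against 11.6% of genes, and limma-voom 4, against 7.68%. In bulk tissue, fewer cells of a type and less RNA per cell cannot be told apart.

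Dcx (ENSMUSG00000031285, GRCm38 X:143855842-143933311, minus strand) was at 25.3, 26.1, 16.5, 15.5 and 22.6 CPM in NestinTK+GCV+ mice 1 to 5. The NestinTK-GCV+ mice had 95.0, 33.0 and 23.4 CPM, the NestinTK-PBS+ mice 69.0, 38.2 and 47.0 CPM, and the NestinTK+PBS+ mice 31.3, 108, 74.6 and 33.5 CPM. The 5 ablated libraries were the narrowest group, and of the 10 controls only NestinTK-GCV+ mouse 3, a library with glutamatergic transcripts, lay inside their range. The change was -1.38 (log2 fold change, SE 0.36, n = 5 and 10, unadjusted p = 0.00118, adjusted p = 0.347 by edgeR's quasi-likelihood test). The means were 21.2 ± 4.92 (SD, n = 5) and 55.3 ± 29.6 CPM (SD, n = 10). Dcx thus kept a level of 135 counts or more in each ablated library. It passed the thresholds when any 1 mouse was left out, but not against NestinTK-GCV+ mice alone (-1.25, unadjusted edgeR p of 0.0239), with only mice whose number starts with 40 (-1.13, unadjusted edgeR p of 0.0189) or with limma-voom (-1.27, unadjusted p = 0.0256, adjusted p = 0.606, where the other alternatives gave adjusted p between 0.0198 and 0.999).

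Sox11 (ENSMUSG00000063632, GRCm38 12:27334264-27342574, minus strand) was at 58.7, 55.2, 148, 63.8 and 34.6 CPM in NestinTK+GCV+ mice 1 to 5. Among controls, the NestinTK-GCV+ mice had 176, 99.0 and 114 CPM, the NestinTK-PBS+ mice 175, 81.3 and 234 CPM, and the NestinTK+PBS+ mice 95.4, 265, 221 and 146 CPM. NestinTK+GCV+ mouse 3 lay in the middle of the controls and the other 4 ablated mice below all of them. The change was -1.16 (log2, SE 0.33, unadjusted p = 0.00247, adjusted p = 0.347 by edgeR's quasi-likelihood test). Without NestinTK+GCV+ mouse 5 it was -0.98, with an unadjusted edgeR p of 0.0107, and the call was lost. It was also lost against NestinTK-GCV+ mice alone (-0.84, unadjusted edgeR p of 0.0589) and with only mice whose number starts with 40 (unadjusted edgeR p of 0.0197).

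Sox4 (ENSMUSG00000076431, GRCm38 13:28948919-28953713, minus strand) was at 0.840, 30.7, 27.8, 7.48 and 16.6 CPM in NestinTK+GCV+ mice 1 to 5, the first from 7 counts. Sox4 in NestinTK-GCV+ mice was at 56.7, 60.4 and 50.1 CPM, in NestinTK-PBS+ mice 59.5, 26.5 and 44.6 CPM, and in NestinTK+PBS+ mice 35.2, 120, 35.6 and 87.4 CPM. Only NestinTK-PBS+ mouse 2 overlapped the ablated range, which was itself wide. The change was -1.79 (log2, SE 0.54, unadjusted p = 0.00359, adjusted p = 0.348 by edgeR's quasi-likelihood test), and without NestinTK+GCV+ mouse 4 it was -1.59, with an unadjusted edgeR p of 0.0130, and the call was lost. In fits of only the groups compared, it was lost as well against NestinTK-GCV+ mice (-1.74, unadjusted edgeR p of 0.0341) and NestinTK+PBS+ mice (-2.06, unadjusted edgeR p of 0.0110). Of the 50-base windows in the Sox4 transcript, 54.1% also lie in Gm26735, a noncoding gene on the opposite strand. Gm26735 had 0 counts in all 15 SVZ libraries, and the strand setting of the counting was not stated, so reads from this overlap cannot be assigned with certainty.

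Tubb2b (ENSMUSG00000045136, GRCm38 13:34126748-34130466, minus strand) was at 10.7, 6.97, 9.68, 5.88 and 8.80 CPM in NestinTK+GCV+ mice 1 to 5. Of the controls, NestinTK-GCV+ mice had 19.4, 18.6 and 7.20 CPM, the NestinTK-PBS+ mice 5.66, 17.1 and 25.9 CPM, and the NestinTK+PBS+ mice 21.0, 33.2, 27.6 and 15.9 CPM. Of the controls 8 were above the ablated range, NestinTK-GCV+ mouse 3 was within it and NestinTK-PBS+ mouse 1 below it. The change was -1.19 (log2, SE 0.45, unadjusted p = 0.0150, adjusted p = 0.388 by edgeR's quasi-likelihood test). It passed the thresholds without NestinTK-GCV+ mouse 3 (-1.28) or without NestinTK-PBS+ mouse 1 (-1.30), and with DESeq2 (-1.17). The assignment of its reads is uncertain, because 39.3% of the 50-base windows of its transcript occur in other genes, mostly Tubb2a (33.4%). Tubb2a itself was at 112% of control (log2 change 0.17, SE 0.22).

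Cd24a (ENSMUSG00000047139, GRCm38 10:43578284-43584265, plus strand) was at 16.1, 25.8, 12.7, 26.1 and 0.124 CPM in NestinTK+GCV+ mice 1 to 5, the last from 1 count. In NestinTK-GCV+ mice it was at 47.5, 18.9 and 26.2 CPM, in NestinTK-PBS+ mice 30.4, 25.7 and 125 CPM, and in NestinTK+PBS+ mice 25.9, 64.3, 28.3 and 63.0 CPM. The groups met near 26 CPM, with 3 controls inside the ablated range, and 1 library at each end was far from the rest. The change was -1.49 (log2, SE 0.64, unadjusted p = 0.0298, adjusted p = 0.440 by edgeR's quasi-likelihood test), and -1.17 without NestinTK+GCV+ mouse 5. Ependymal cells also carry Cd24a. Of 8 ependymal markers 8 had a change below 0 and 2 were called lower, against 1.22% of all genes. Their median log2 change was -1.24, against -0.03 over all genes. The sums were 28.9 to 238 CPM in ablated and 93.7 to 363 CPM in control libraries. The part of these cells in the Cd24a difference was not tested.

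Stmn1 (ENSMUSG00000028832, GRCm38 4:134468320-134473843, plus strand) was at 31.4, 103, 41.1, 29.2 and 30.2 CPM in NestinTK+GCV+ mice 1 to 5. Control levels in NestinTK-GCV+ mice were 103, 48.8 and 172 CPM, in NestinTK-PBS+ mice 49.0, 31.8 and 65.5 CPM, and in NestinTK+PBS+ mice 44.6, 77.1, 48.5 and 53.7 CPM. The highest ablated and the highest control library were the 2 with glutamatergic transcripts. The change was -0.56 (log2, SE 0.38, unadjusted p = 0.157 by edgeR's quasi-likelihood test). Without NestinTK+GCV+ mouse 2 it was -1.07 (unadjusted p = 0.00982 by edgeR) and passed, while without both glutamatergic libraries it did not pass. Of its 50-base windows 36.5% are shared with other genes, mostly the processed pseudogene Gm11223, which had 1 to 36 counts per SVZ library.

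Stmn2 (ENSMUSG00000027500, GRCm38 3:8509360-8561606, plus strand) was at 182, 352, 179, 132 and 144 CPM in NestinTK+GCV+ mice 1 to 5. The 3 NestinTK-GCV+ mice had 157, 209 and 448 CPM, the NestinTK-PBS+ mice 98.0, 134 and 124 CPM, and the NestinTK+PBS+ mice 124, 209, 170 and 324 CPM. The ablated range lay wholly inside the control range, and the top library of each was again the glutamatergic one. The change was -0.02 (log2, 95% interval -0.68 to 0.65, unadjusted p = 0.961 by edgeR's quasi-likelihood test), and its sign turned under 3 of the 9 other settings and when any of 6 mice was left out. A halving of the level lies outside that interval, and smaller changes do not.

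Tubb3 (ENSMUSG00000062380, GRCm38 8:123411424-123422015, plus strand) was at 217, 212, 231, 114 and 265 CPM in NestinTK+GCV+ mice 1 to 5 and at 171 to 349 CPM, with a median of 227 CPM, in the controls. Apart from NestinTK+GCV+ mouse 4 the ablated libraries lay within the control range, and the change was -0.19 (log2, 95% interval -0.60 to 0.23). Ncam1 (ENSMUSG00000039542, GRCm38 9:49502136-49798925, minus strand) was at 245, 328, 213, 218 and 315 CPM in NestinTK+GCV+ mice 1 to 5 and at 176 to 274 CPM, with a median of 217 CPM, in the controls. Its change of 0.26 (log2, 95% interval -0.07 to 0.58) had the opposite sign to the other 9. Dpysl3 (ENSMUSG00000024501, GRCm38 18:43320984-43438286, minus strand) was at 33.3 to 68.2 CPM in ablated and 28.1 to 124 CPM in control libraries, with a change of -0.29 (log2, 95% interval -0.95 to 0.37). The intervals, from edgeR's quasi-likelihood fit, leave out a 2-fold fall for these 3 genes. No gene of the 10 had SVZ groups that did not overlap, where 0.256% of all genes tested did.

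**Figure D1:**
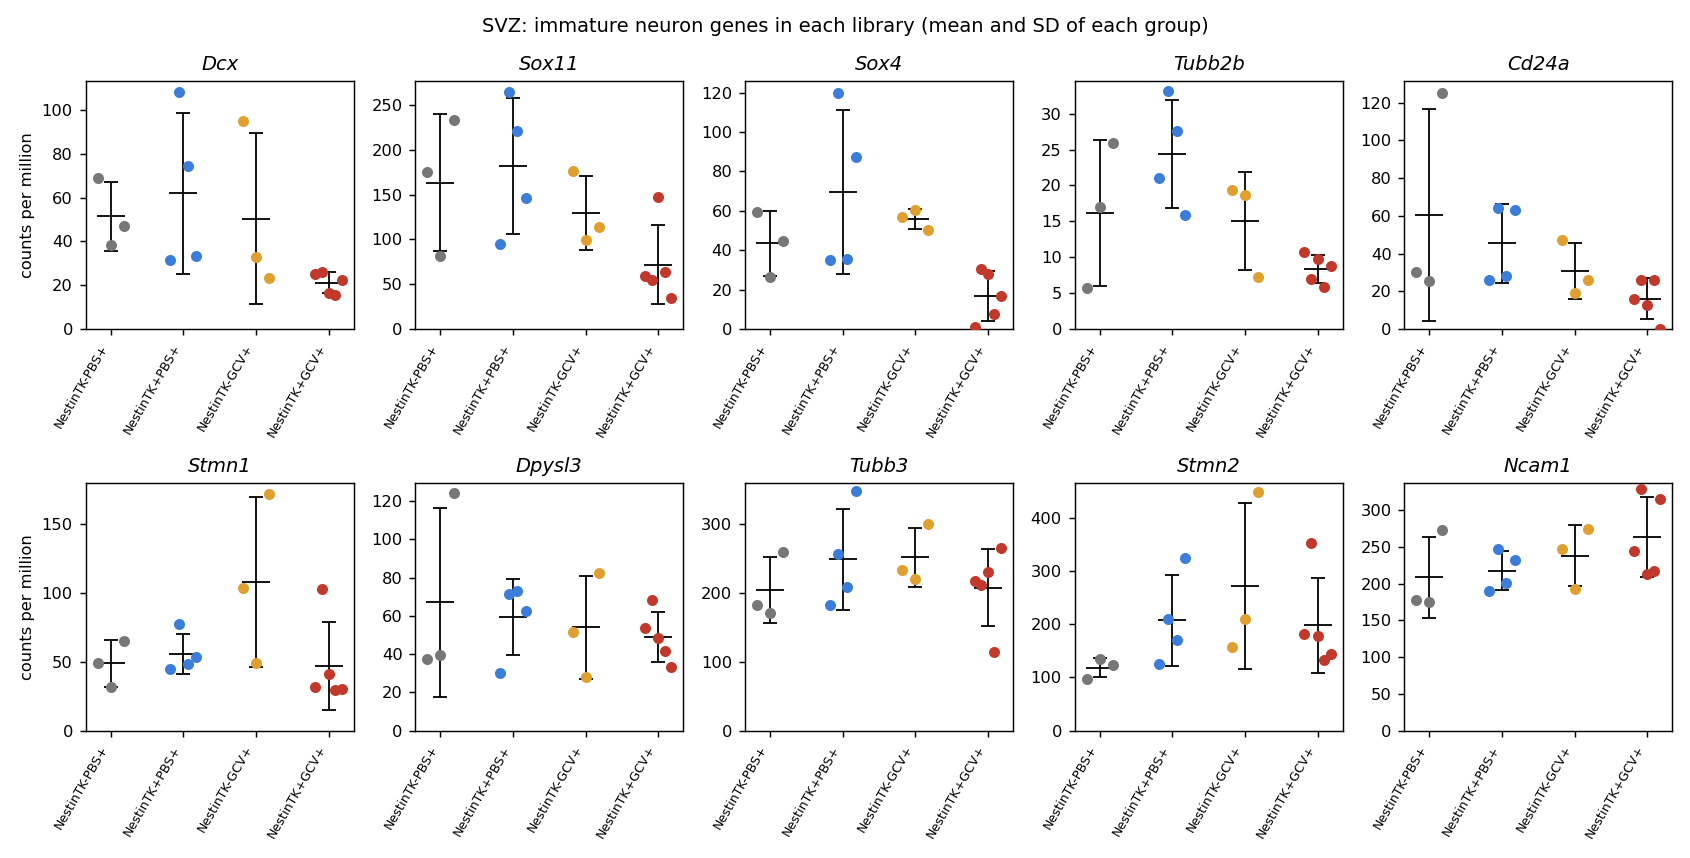
Level of each of the 10 genes (y axis, CPM from 0) in every SVZ library, by group (x axis), with black bars for the group mean and SD. The 5 NestinTK+GCV+ points lie at 15.5 to 26.1 CPM for Dcx, below 9 of 10 controls, but within or around the control points for Tubb3, Stmn2 and Ncam1.

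Per kilobase of annotated exon, the 10 genes spanned a wide range of SVZ control levels. Tubb3 was highest at 127 CPM per kb, followed by Stmn1 at 36.1, Stmn2 at 35.7 and Ncam1 at 25.5. Sox11 at 19.3, Cd24a at 17.7 and Sox4 at 12.0 came next, and Dpysl3 at 9.08, Tubb2b at 8.35 and Dcx at 4.38 CPM per kb were lowest. Exon length includes the long last exon of Dcx, so the order depends on which isoforms are used. The 5 genes with changes at an unadjusted p under 0.05 were thus among the 6 lowest, and Dpysl3 was the other of the 6.

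Single control groups were compared in a fit of all 4 groups, whose p differ from those of fits to only the groups compared. The comparisons share the same 5 NestinTK+GCV+ libraries, and calls came only from that with NestinTK+PBS+. There Dcx (-1.55, SE 0.44), Sox11 (-1.34, SE 0.39), Sox4 (-2.06, SE 0.63) and Tubb2b (-1.54, SE 0.53) passed, against 1.19% of all genes. Against NestinTK-GCV+ none of the 10 passed, where 0.94% of genes did. The largest changes there were Sox4 at -1.74, Dcx at -1.25 and Stmn1 at -1.20, with unadjusted p of 0.0170, 0.0149 and 0.0133 in edgeR's quasi-likelihood test. Against NestinTK-PBS+ none passed, where 1.92% did, with Dcx at -1.28 (unadjusted p = 0.0132), Sox11 at -1.18 (unadjusted p = 0.0114) and Cd24a at -1.90 (unadjusted p = 0.0267) in the same edgeR fit. NestinTK+GCV+ and NestinTK-PBS+ mice shared no animal-number series, so ablation and series cannot be told apart in that contrast. The 4 calls against NestinTK+PBS+ rested on few mice. There were none without NestinTK+PBS+ mouse 2, 2 without NestinTK+GCV+ mouse 5 or without NestinTK+PBS+ mouse 3, and 8 over all contrasts without NestinTK+GCV+ mouse 2.

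Neither GCV in mice without the transgene nor the transgene under PBS moved any of the 10 genes past the thresholds, where 1.06% and 0.195% of genes passed. Stmn2 came nearest, 1.19 higher on the log2 scale in NestinTK-GCV+ than in NestinTK-PBS+ (SE 0.42, unadjusted p = 0.0102 by edgeR). That comparison holds NestinTK-GCV+ mouse 3, the glutamatergic library. The interaction of genotype and treatment, in which 0.837% of all genes passed, gave no call among the 10. Sox4 had -2.42 (unadjusted p = 0.0247), Dcx -1.52 (unadjusted p = 0.0401), Stmn1 -1.40 (unadjusted p = 0.0444) and Stmn2 -1.26 (unadjusted p = 0.0292) in edgeR's quasi-likelihood test. All GCV libraries carry the lowest library numbers, so treatment and any order of handling cannot be told apart. The NestinTK-PBS+ mice came wholly from the lower animal-number series, and the NestinTK-GCV+ and NestinTK+PBS+ mice from both. The contrasts for GCV, transgene and interaction are thus partly mixed with the series.

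In the striatum none of the 10 genes was called, against 0.694% of genes, and all group ranges overlapped, where 0.532% did not. At an unadjusted p under 0.05 in edgeR, 1 gene was lower, against 5.31% of all genes, and 1 was higher. The share of all genes in the higher direction was not counted for edgeR. None had an adjusted p under 0.05 by edgeR's quasi-likelihood test, DESeq2 or limma-voom, against 0.182%, 0.934% and 0.272% of all genes. At an unadjusted p under 0.05 in either direction edgeR and DESeq2 had 2 and limma-voom 1, against 10.9% of all genes by DESeq2 and 10.9% by limma-voom. The common biological coefficient of variation, a single value over all genes, was 0.251, against 0.939 in the SVZ. Standard errors of the 10 genes were also smaller in the striatum, by unequal amounts. They were 0.16 against 0.54 for Sox4 and 0.24 against 0.32 for Dpysl3. Smaller changes could thus have been seen in the striatum, by a margin that depends on the gene.

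Dcx was at 21.8, 35.2, 35.9, 24.4 and 21.9 CPM in the striatum of NestinTK+GCV+ mice 1 to 5, and at 18.4 to 30.6 CPM, with a median of 22.8 CPM, in the controls. None of the ablated mice was below the control range and 2 were above it, with a log2 change of 0.26 (95% interval -0.08 to 0.60). Sox11 was at 123, 146, 91.4, 136 and 95.4 CPM in the ablated and 73.7 to 165 CPM in the control striatum, a change of 0.21 (95% interval -0.12 to 0.55). Sox4 was at 37.7, 49.0, 51.1, 50.8 and 41.5 CPM in the ablated and 32.1 to 72.3 CPM in the control striatum, a change of -0.09 (95% interval -0.41 to 0.23). The 3 genes called in the SVZ thus had striatal intervals that leave out a 2-fold fall.

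Stmn1 was at 18.7, 19.6, 25.9, 24.4 and 19.3 CPM in the striatum of NestinTK+GCV+ mice 1 to 5. Next to these, NestinTK-GCV+ mice had 24.7, 23.5 and 50.1 CPM, the NestinTK-PBS+ mice 22.4, 21.2 and 32.7 CPM, and the NestinTK+PBS+ mice 27.0, 31.4, 20.7 and 41.1 CPM. The 3 ablated libraries under 20 CPM were below all controls, and the other 2 were inside their range. The change was -0.45 (log2, SE 0.20, unadjusted p = 0.0365, adjusted p = 0.435 by edgeR's quasi-likelihood test). It was under 2-fold, and the 2 highest controls were glutamatergic libraries, NestinTK-GCV+ mouse 3 and NestinTK+PBS+ mouse 4.

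Ncam1 was at 465, 528, 489, 440 and 430 CPM in the striatum of NestinTK+GCV+ mice 1 to 5 and at 318 to 449 CPM, with a median of 418 CPM, in the controls, a change of 0.21 (log2, SE 0.10, unadjusted p = 0.0403, adjusted p = 0.448 by edgeR's quasi-likelihood test). Above every control lay 3 of its 5 ablated libraries. The changes of Tubb3 (-0.20), Tubb2b (-0.09), Stmn2 (-0.15), Dpysl3 (-0.08) and Cd24a (0.27) had 95% intervals that covered 0. Cd24a was scarce, with 1 to 21 counts per library, so that its interval of -0.73 to 1.28 is wide. Stmn2 reached 400 CPM in NestinTK+PBS+ mouse 4, against 126 to 261 CPM in the other controls, and its change was 0.17 without the glutamatergic libraries.

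**Figure D2:**
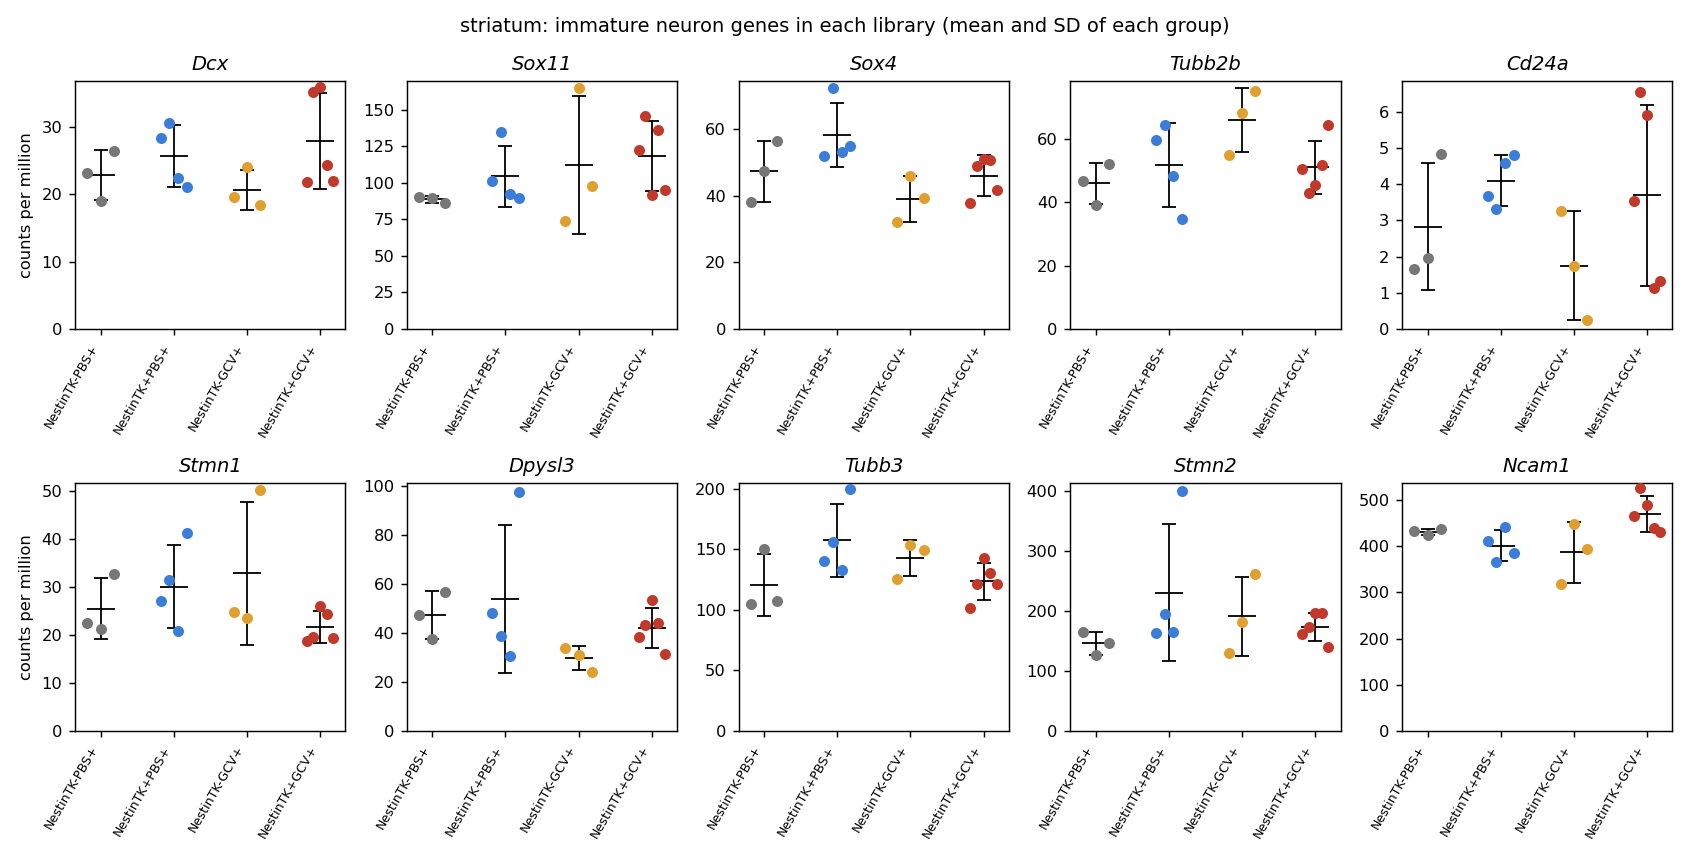
Level of each of the 10 genes (y axis, CPM from 0) in every striatum library, by group (x axis), with black bars for the group mean and SD. Dcx lies at 21.8 to 35.9 CPM in NestinTK+GCV+ mice and at 18.4 to 30.6 CPM in controls, and Stmn2 has 1 control library at 400 CPM.

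Between single groups of the striatum no gene of the 10 passed either. The share of all genes that did was 2.1% against NestinTK-GCV+, 1.35% against NestinTK+PBS+ and 1.06% against NestinTK-PBS+. It was 2.46% for GCV without the transgene, 0.83% for the transgene under PBS and 3.28% for the interaction. The lowest unadjusted p of the interaction in edgeR's quasi-likelihood test were 0.0171 for Tubb3 (-0.59), 0.0291 for Stmn2 (-0.80) and 0.0300 for Stmn1 (-0.84). Leaving out NestinTK-GCV+ mouse 1 or NestinTK+PBS+ mouse 3 gave 1 call. The striatum came from the same mice, so the mixing of groups with animal-number series applies to these contrasts and to the pooled comparison of the striatum too.

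Since both tissues came from the same mice, the difference of the changes was tested on the within-mouse difference of log2 CPM with limma. The SVZ change of Dcx minus its striatum change was -1.47 on the log2 scale (SE 0.37, unadjusted p = 0.00109, adjusted p = 0.215 by limma). The difference was -2.30 for Sox4 (SE 0.62, unadjusted p = 0.00204, adjusted p = 0.255), -1.45 for Sox11 (SE 0.42, unadjusted p = 0.00365, adjusted p = 0.281) and -2.39 for Cd24a (SE 0.77, unadjusted p = 0.00745, adjusted p = 0.341) in limma. These 4 of 10 had p of at most 0.01, against 2.63% of all genes tested in both tissues, and no adjusted p was under 0.05. This count too is a description, given how the 10 were chosen. Tubb2b had -0.97 (unadjusted p = 0.0450 by limma). The differences of Stmn1 (-0.19), Dpysl3 (-0.19), Tubb3 (-0.02), Ncam1 (0.04) and Stmn2 (0.12) had intervals that covered 0, the widest from -1.03 to 0.66 for Dpysl3. Dcx and Sox4 kept p of at most 0.01 whichever mouse was left out. Cd24a missed it in 9 of the 15 leave-one-out fits and Sox11 in 4, and both missed it without NestinTK+GCV+ mouse 2 or mouse 5, leaving 2 genes. Cd24a missed it too with no mouse block, with a prior count of 0.5 and without mice that had a glutamatergic library (unadjusted limma p of 0.0170, 0.0112 and 0.0388), and Sox11 in the last of these (0.0354).

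**Figure D3:**
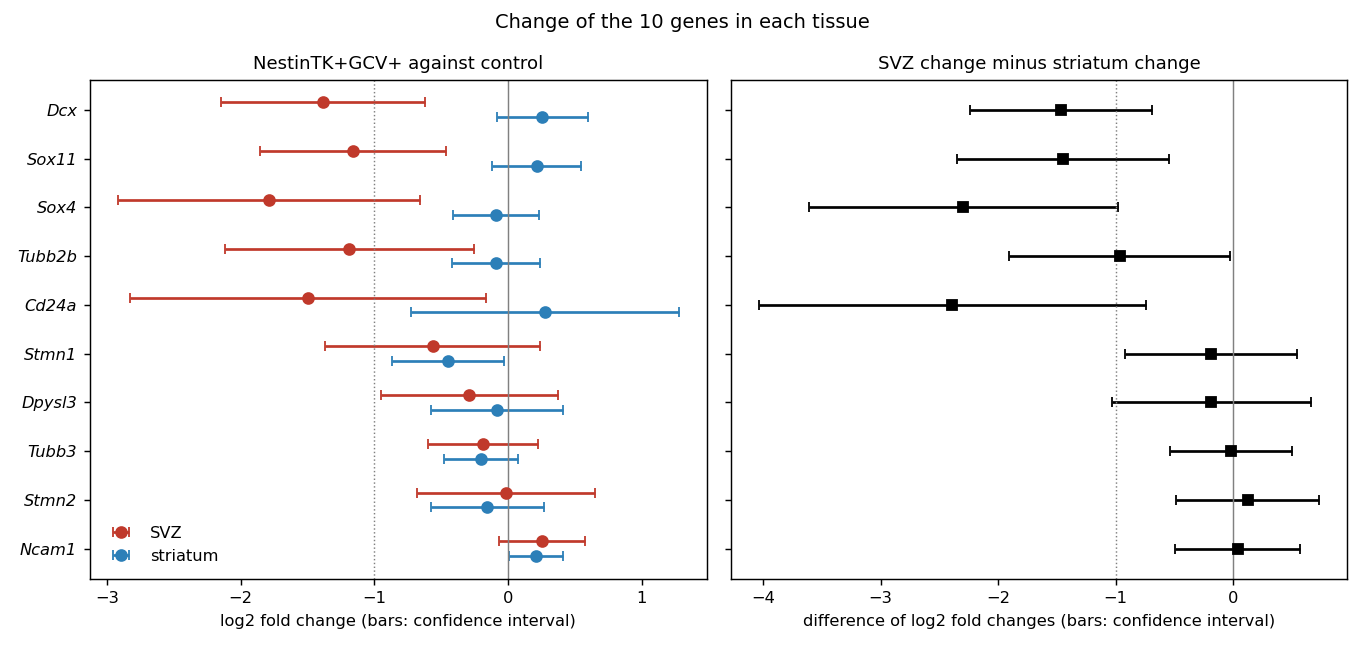
Left, log2 fold change of NestinTK+GCV+ against pooled controls with its 95% interval (x axis) for each of the 10 genes (y axis) in the SVZ (red) and the striatum (blue), and right, the difference between the tissues with its 95% interval. The solid line marks 0 and the dotted line -1, a 2-fold fall or difference, and Dcx, Sox11, Sox4, Tubb2b and Cd24a have differences whose intervals lie below 0.

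Close relatives among the 10 were compared within each library as log2 ratios, by a two-sided exact permutation test over all 3003 splits of the mice, with adjustment over 6 tests. In the SVZ the ratio of Tubb2b to Tubb3 was 0.83 lower in ablated than in control mice (exact permutation p = 0.0623, adjusted p = 0.130). Both are beta-tubulins, of which Tubb3 is the neuronal one in mature tissue. The ratio of Stmn1 to Stmn2 was 0.63 lower (exact permutation p = 0.0529, adjusted p = 0.130), and that of Sox11 to Sox4 1.14 higher (exact permutation p = 0.0996, adjusted p = 0.149). In the striatum the 3 differences were 0.12, -0.32 and 0.29, with exact permutation p of 0.664, 0.0649 and 0.154. None passed after adjustment, and without NestinTK+PBS+ mouse 4 both stathmin ratios did (the lowest adjusted exact permutation p was 0.0480).

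The level of a gene in control striatum was set beside its change in the SVZ. How many neuroblasts the striatum samples held was not measured. The neuroblast genes Igfbpl1 and Prokr2 had 24 to 57 and 4 to 18 counts in the control striatum libraries. Reads there come from transcript ends, so levels need no correction for length. Ncam1, Stmn2 and Tubb3 were highest at 406, 193 and 142 CPM and ranked above 97.8%, 93.8% and 90.9% of genes tested. They had SVZ changes of 0.26, -0.02 and -0.19. Cd24a and Dcx were lowest at 3.01 and 23.3 CPM, above 24.5% and 60.1% of genes, and had SVZ changes of -1.49 and -1.38. Over the 10 genes the Spearman correlation of striatal level and SVZ change was 0.73, given as a description, since the genes share the same libraries. Sox4 was in the middle of the 10 in striatal level at 49.1 CPM and had the largest SVZ fall, -1.79. Tubb2b lay above Sox4 in striatal level at 54.2 CPM, with an SVZ change of -1.19. Sox11 was at 102 CPM, above 87.1% of genes in the striatum, with an SVZ change of -1.16, Dpysl3 at 44.6 CPM with -0.29 and Stmn1 at 29.5 CPM with -0.56. Whether transcripts of mature neurons hid a fall of Tubb3, Stmn2 and Ncam1 was not tested.

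**Figure D4:**
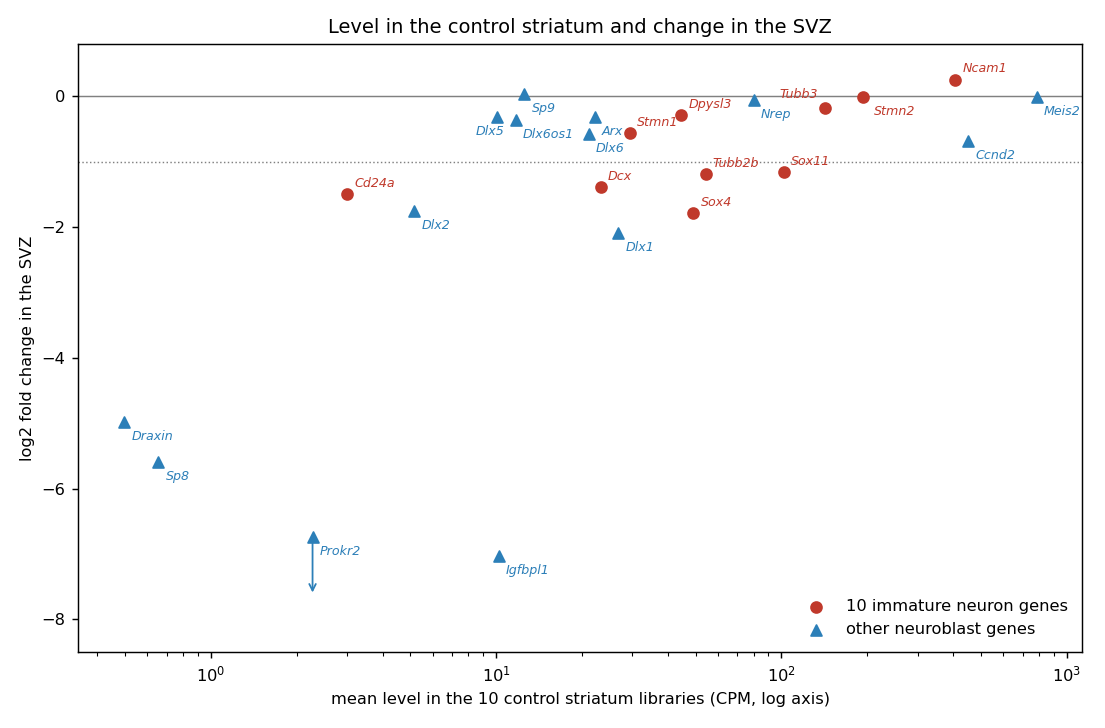
Mean level in the 10 control striatum libraries (x axis, CPM, log axis) and log2 fold change in the SVZ (y axis) for the 10 immature neuron genes (red circles) and 14 other neuroblast genes (blue triangles). The solid line marks 0 and the dotted line a 2-fold fall. Prokr2, with 0 counts in ablated SVZ, is drawn at its bound of 107-fold with an arrow, and the genes above 140 CPM in the striatum lie near or above the line for 0, except Ccnd2.

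Markers of mature neurons were not called lower. Of 12 general markers of mature neurons in the SVZ none was called. At an unadjusted p under 0.05 in edgeR 3 were higher, a direction whose share of all genes was not counted. The median log2 change of the 12 was 0.15, against -0.03 over all genes. Their sum was 5383 to 9433 CPM in ablated and 3939 to 8640 CPM in control libraries, highest in the 2 glutamatergic ones. The 9 medium spiny neuron markers gave no call either (median 0.26), with sums of 3845 to 12483 and 4817 to 10202 CPM. No marker of either list was at 0 in all libraries.

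The 2 SVZ libraries with over 100 CPM of Slc17a7 and Slc17a6 had the highest levels of Stmn2, and 1 of them, NestinTK-GCV+ mouse 3, the highest of Stmn1. Stmn2 was at 352 and 448 CPM and Stmn1 at 103 and 172 CPM in NestinTK+GCV+ mouse 2 and NestinTK-GCV+ mouse 3. The other 13 had Stmn2 from 98.0 to 324 CPM and Stmn1 from 29.2 to 103 CPM, the last in NestinTK-GCV+ mouse 1 with 41.7 CPM of the transporters. Dcx did not share this, with 26.1 and 23.4 CPM in those 2 libraries. Without both libraries the SVZ call stayed at 3 genes, with Dcx at -1.56, Sox11 at -1.12 and Sox4 at -2.14 on the log2 scale.

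**Figure D5:**
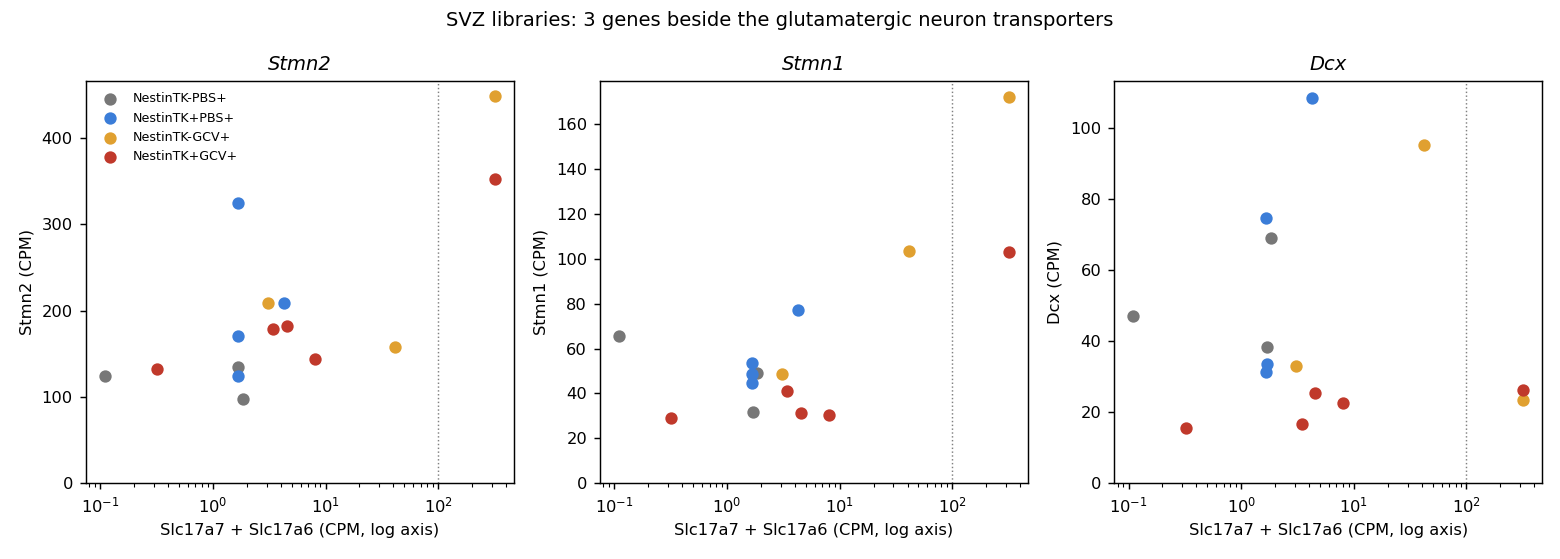
Levels of Stmn2, Stmn1 and Dcx (y axes, CPM from 0) against the sum of Slc17a7 and Slc17a6 (x axis, CPM, log axis) in the 15 SVZ libraries, coloured by group. The 2 libraries right of the dotted line at 100 CPM have the highest Stmn2 (352 and 448 CPM), while their Dcx is 26.1 and 23.4 CPM.

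The 30 relatives of the 10 genes are other tubulins, stathmins, Dpysl and doublecortin-like genes, polysialyltransferases and growth cone proteins. Some of the tubulin names were chosen after their values were seen. Of the 30, 1 was called lower in the SVZ, against 1.22% of all genes, and none higher. Their median log2 change was 0.03. The gene was Tuba1c, an alpha-tubulin, with 3 counts over the 5 ablated libraries and 0 to 406 counts in each control (log2 change -6.36, SE 1.78, unadjusted p = 0.00195, adjusted p = 0.347 by edgeR's quasi-likelihood test). Dclk1, the nearest relative of Dcx, was at 113% of control (log2 change 0.17, SE 0.15), and Sox12, the third member of the group of Sox4 and Sox11, at 90.3% (-0.15, 95% interval -1.10 to 0.80). St8sia2 and St8sia4, the enzymes that add polysialic acid to Ncam1, had changes of -0.56 (SE 0.52) and 0.66 (SE 0.40). In the striatum 29 of the 30 were tested, and none was called.

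Of 14 other neuroblast genes, 13 had an SVZ change below 0 and 5 were called lower, against 1.22% of all genes. The median change was -0.63. Some names in this list were chosen after their values were seen, so these counts are a description. Prokr2, a receptor for the chemoattractant prokineticin, had 0 counts in all 5 ablated libraries and 27 to 200 in each control, so it was at least 107-fold lower against a floor of 3 counts over the group. It was the 1 gene of the whole table with an adjusted p under 0.05 (0.0382 by edgeR's quasi-likelihood test). Igfbpl1, a secreted relative of the insulin-like growth factor binding proteins, had 0 to 2 counts in ablated and 6 to 501 in control libraries (log2 change -7.03, SE 1.18, edgeR adjusted p = 0.0710). Dlx1, a homeobox factor of the GABAergic lineage, was at 23.5% of control (-2.09, SE 0.53). Sp8, a zinc finger factor, and Draxin, a guidance protein, had 6 and 4 counts in all over the 5 ablated libraries, against 1023 and 453 over the 10 controls. The other 9 of the 14 were at 29.5% (Dlx2) to 103% (Sp9) of control and were not called, beside 38.3%, 44.8% and 29.0% for Dcx, Sox11 and Sox4. None of the 14 was called in the striatum, where Igfbpl1 had -0.74 and Prokr2 -1.63 (unadjusted edgeR p of 0.0209 and 0.0129). In that tissue 10 of the 14 had a change below 0, with a median of -0.29. At an unadjusted p under 0.05 in edgeR 4 were lower, against 5.31% of all genes.

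Besides the ependymal markers given with Cd24a, those of dividing cells and choroid plexus had calls in the SVZ (1.22% of all genes called lower). There 8 of 8 markers of dividing cells had a change below 0 and 2 were called lower, with sums of 8.30 to 40.6 CPM in ablated and 19.1 to 151 CPM in control libraries. All 6 choroid plexus markers were lower at an unadjusted p under 0.05 in edgeR, against 6.09% of all genes, and 3 of them were called. Their sums were 18.3 to 233 CPM in ablated and 11.9 to 102600 CPM in control libraries. The medians of these sums were 183 and 209 CPM, and the high values came from NestinTK-PBS+ mice 1 and 2 and NestinTK+PBS+ mouse 1 at 46369, 102080 and 102600 CPM, while the other 7 controls had 11.9 to 775 CPM. Their part in the changes of the 10 genes was not tested as such. Without the 3 libraries with over 1% Ttr the changes of Dcx, Sox11 and Sox4 were -1.49, -1.32 and -1.96 on the log2 scale and all 3 passed.

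Among the genes whose level followed Dcx most closely over the 10 control SVZ libraries were Sept2, Gm5602, Gm10722 and Son, with Spearman correlations of 0.95, 0.94, 0.93 and 0.92. These are among the highest of 16374 values from 10 libraries that share the same dissections, and are a description. Of the other members, Sox11 had 0.76 with Dcx, Cd24a 0.58, Tubb2b 0.50, Sox4 0.27, Dpysl3 0.21, Stmn1 0.18, Ncam1 0.05, Tubb3 -0.05 and Stmn2 -0.21. The Pearson correlations of Sox11, Cd24a, Tubb2b and Sox4 with Dcx were 0.76, 0.34, 0.36 and 0.35. Without the 2 libraries farthest from the median of Dcx they were 0.70, 0.15, 0.12 and -0.14.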

How the data were processed

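Gene-level read counts, not normalised, were deposited by the authors for the SVZ (SMART-Seq v4) and the striatum (QuantSeq 3' FWD). According to the methods and the submitters' processing notes, reads were trimmed with Trimmomatic (0.36 in the notes), aligned with STAR 2.5.3a to GRCm38 (mm10) and counted with featureCounts on GENCODE. The strand setting was not given in the sources used here. Full-length and 3' libraries weight genes differently, so levels were not compared between the tissues. Depth was 8360810 to 21056005 counts per SVZ and 2626962 to 4693441 per striatum library, which limits the precision of low genes.

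From the counts, genes over 1 CPM in at least 3 libraries were fitted per tissue with edgeR 4.0.16 (TMM, quasi-likelihood test, Benjamini-Hochberg adjustment) in R 4.3.3, NestinTK+GCV+ against the pooled controls, as in the study, or by 4 groups. A gene was called at the study's thresholds, p no higher than 0.01 with a change of 2-fold or more. The study itself applied them to a limma fit. CPM were scaled by the same factors. Tissue differences used limma 3.58.1 on log2 CPM with a prior count of 2. Paralogue ratios used exact permutation tests. DESeq2 1.42.0 and limma-voom were alternatives. The scripts were tested on simulated data. Tissues were paired by the mouse number in the titles, since each number marks 1 animal. Deviations from group means correlated between the tissues of a mouse at -0.04 to 0.16, and 5 of 15 SVZ libraries correlated best with their own mouse. Gene positions and shared 50-base windows came from GENCODE vM21 (GRCm38), and promoters from RefSeq (GRCm38.p6).

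The 10 genes, the lists and the rules were chosen with earlier results of these data known, and the list of glutamatergic markers was added after the values were seen. The text names all 10 genes, the listed relatives and neuroblast genes past the thresholds, direct relatives beside a gene, and, of the 5 genes most correlated with Dcx, 4, since 1 is not reported here. Further names in the lists of neuroblast and tubulin relatives were chosen after their values were seen. Replicates were separate mice.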

Additional observations from a re-analysis of the deposited data

Results flagged for a closer look

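Some libraries lay far from the others of their group by Dixon's criterion, which flags about 1 in 20 groups by chance, and 60 groups were examined. Tubb3 was at 114 CPM in the SVZ of NestinTK+GCV+ mouse 4, where the other 4 ablated mice had 212 to 265 CPM. Stmn1 was at 103 CPM in the SVZ of NestinTK+GCV+ mouse 2, a library with 316 CPM of glutamate transporter transcripts, where the others had 29.2 to 41.1 CPM. Cd24a was at 0.124 CPM, from 1 count, in the SVZ of NestinTK+GCV+ mouse 5, where the others had 12.7 to 26.1 CPM. In the striatum Cd24a was at 0.236 CPM, also from 1 count, in NestinTK-GCV+ mouse 3, the lowest of the 10 controls.

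The effect of ablation differed between the tissues, by the limma test on within-mouse differences, for 4 genes at an unadjusted p of at most 0.01, none with an adjusted p under 0.05. The SVZ change minus the striatum change was -1.47 for Dcx, -2.39 for Cd24a, -1.45 for Sox11 and -2.30 for Sox4 on the log2 scale. In 9 of 15 leave-one-out fits Cd24a missed the threshold, and its difference was -1.41 without NestinTK+GCV+ mouse 5. It also missed it with no mouse block, with a prior count of 0.5 and without mice that had a glutamatergic library (unadjusted limma p of 0.0112 to 0.0388), as Sox11 did in the last (0.0354).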

How the results depend on the processing

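The 3 calls of the SVZ (Dcx, Sox11 and Sox4) became 5 with DESeq2, 0 against NestinTK-GCV+ mice alone, 1 with only mice whose number starts with 40 and 0 at an adjusted p under 0.05. They ranged from 2 to 4 when 1 mouse was left out, and the other 6 settings gave 2 or 3. The 4 calls of the single-group contrasts in the SVZ ranged from 0 to 8 in such fits, the 0 of the striatum from 0 to 1, the 4 tissue differences from 2 to 4 and the 0 paralogue ratios from 0 to 2. The tissue differences were 2 without mice that had a glutamatergic library and 3 with no mouse block, that is without pairing the tissues by mouse. No call was made in the striatum under any alternative to the pooled comparison. Alternatives on glutamatergic libraries and the leave-one-out fits of single-group contrasts were chosen after seeing the data. The cause of these shifts was not tested.

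Signs turned only for log2 changes near 0 or for striatal ones. In the SVZ Stmn2 was 0.0088 with DESeq2, 0.026 with limma-voom, 0.0087 with RLE size factors and -0.32 to 0.20 with 1 mouse left out. In the striatum Dpysl3 was 0.012 with limma-voom, 0.48 against NestinTK-GCV+ only, 0.045 without glutamatergic libraries and -0.18 to 0.12 with 1 mouse left out. Sox4 was 0.21 against NestinTK-GCV+ only, Cd24a -0.19 against NestinTK+PBS+ only and -0.037 to 0.52 with 1 mouse left out, Sox11 -0.0035 with only mice numbered from 40, and Stmn2 0.17 without glutamatergic libraries and -0.21 to 0.028 with 1 mouse left out. Of the tissue differences, Stmn2 was -0.016 and Tubb3 0.0083 without mice with a glutamatergic library, and with 1 mouse left out Stmn2 was -0.10 to 0.30, Ncam1 -0.061 to 0.12 and Tubb3 -0.12 to 0.21. The striatal ratio of Tubb2b to Tubb3 was -0.0052 to 0.21.

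The spread between SVZ libraries, a coefficient of variation of 0.939 in edgeR, and the 1 to 21 counts of Cd24a per striatum library limit what these comparisons resolve.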
